A study of Mus musculus with 5 samples.

Results

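In mouse dendritic cells treated with SAHA, 1272 regions of histone H3 lysine 4 trimethylation (H3K4me3) lay near a gene start and overlapped no H3K4me3 region of the diluent-treated cells. They were 8.25% of the 15414 promoter-near regions in the SAHA list. Members were selected on the readout itself, by the presence of a region in the SAHA list and its absence from the diluent list. A member overlapped no diluent region by even 1 bp, and its midpoint lay within 5 kb of the gene start that the authors' deposited table gives for it. Of all 25723 SAHA regions, 4572 overlapped no diluent region (17.8%), and 3300 of those lay farther than 5 kb from the listed start. The 1272 members fell into 3 classes. The first held 617 regions (583 genes) within 2 kb of a diluent region, called flanking regions here. The second held 472 regions (446 genes) at starts with no diluent region within 5 kb, called lone regions here. The name says only that the deposited diluent list had no region there, not that the mark was absent. The remaining 183 regions (175 genes) had a diluent region within 5 kb of the start, but more than 2 kb from the member itself.

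Bone marrow of female C57BL/6 mice aged 10 weeks was cultured with IL-4 and GM-CSF (10 ng/mL each) over 7 days, and the cells were selected for CD11c to a stated purity of 95%. They then received SAHA, at a dose labelled 500 nm, or diluent for 12 hours. Chromatin was precipitated for H3K4me3 or STAT3 after either treatment, and with control IgG after diluent only. Each of the 5 combinations is 1 library, so no difference between SAHA and diluent has a replicate check, and none was tested. Intervals below are exact 95% Clopper-Pearson intervals and cover counting error only.

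H3K4me3 is placed on nucleosomes around active gene starts by the SET1 and MLL methyltransferase complexes, and usually covers the first nucleosomes on both sides of the start. Starts rich in CpG dinucleotides tend to carry it in most cell types, whereas starts poor in CpG tend to carry it where the gene is active. SAHA (vorinostat) blocks zinc-dependent histone deacetylases, the enzymes that remove acetyl groups from histones and other proteins. STAT3 is a transcription factor activated by cytokine receptors such as those for IL-6 and IL-10.

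The 6 sequences that follow show the range of promoters behind the members. The first 4 belong to lone regions that covered the listed start, and the last 2 to flanking regions. Each is the 300 bases from 250 before to 50 after the start in RefSeq (GRCm38.p6), written 5′ to 3′ on the gene's strand, with CpG dinucleotides in capitals. The deposited regions are on build mm9, so a region's ends could not be placed within these letters.
H2-Eb2: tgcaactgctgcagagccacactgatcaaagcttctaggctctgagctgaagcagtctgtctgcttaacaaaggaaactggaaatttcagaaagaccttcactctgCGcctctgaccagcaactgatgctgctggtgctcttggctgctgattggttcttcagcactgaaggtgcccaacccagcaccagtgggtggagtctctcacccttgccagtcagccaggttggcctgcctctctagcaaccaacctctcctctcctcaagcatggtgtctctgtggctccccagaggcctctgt
Mgl2: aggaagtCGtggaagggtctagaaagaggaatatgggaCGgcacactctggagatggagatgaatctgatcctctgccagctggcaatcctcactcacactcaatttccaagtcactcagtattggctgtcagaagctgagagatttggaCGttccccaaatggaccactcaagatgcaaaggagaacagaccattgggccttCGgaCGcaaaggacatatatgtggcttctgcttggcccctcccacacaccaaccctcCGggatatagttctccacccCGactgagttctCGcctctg
Chad: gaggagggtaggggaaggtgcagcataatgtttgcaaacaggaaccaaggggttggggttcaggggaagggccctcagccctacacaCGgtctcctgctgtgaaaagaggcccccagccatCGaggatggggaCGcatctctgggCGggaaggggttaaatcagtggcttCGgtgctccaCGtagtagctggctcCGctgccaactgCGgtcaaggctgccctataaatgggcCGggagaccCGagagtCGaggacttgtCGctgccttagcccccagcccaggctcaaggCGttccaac
Bcam: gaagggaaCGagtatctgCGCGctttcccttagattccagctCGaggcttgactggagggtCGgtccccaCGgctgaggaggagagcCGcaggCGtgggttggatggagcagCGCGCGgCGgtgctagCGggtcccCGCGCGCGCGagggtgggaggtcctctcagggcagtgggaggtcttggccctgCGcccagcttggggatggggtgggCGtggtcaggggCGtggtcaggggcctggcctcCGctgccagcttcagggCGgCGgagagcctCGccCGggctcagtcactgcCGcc
Itgb7: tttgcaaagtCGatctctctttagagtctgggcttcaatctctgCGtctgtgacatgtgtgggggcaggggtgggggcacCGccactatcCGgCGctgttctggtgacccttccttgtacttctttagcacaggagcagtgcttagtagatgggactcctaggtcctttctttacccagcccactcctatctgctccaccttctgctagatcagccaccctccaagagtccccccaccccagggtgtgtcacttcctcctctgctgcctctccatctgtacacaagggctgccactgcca
Irg1: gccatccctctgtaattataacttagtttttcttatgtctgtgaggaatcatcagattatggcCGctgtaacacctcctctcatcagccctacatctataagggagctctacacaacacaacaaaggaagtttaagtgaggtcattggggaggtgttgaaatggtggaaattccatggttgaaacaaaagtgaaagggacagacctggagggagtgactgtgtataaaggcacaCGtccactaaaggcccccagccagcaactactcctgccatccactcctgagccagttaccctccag

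H2-Eb2, a class II major histocompatibility beta chain gene (chr17:34325425-34325724, plus strand), held 1 CpG in this window. Mgl2, a C-type lectin of dendritic cells and macrophages (chr11:70130107-70130406, plus strand), held 8. Chad, encoding the cartilage protein chondroadherin (chr11:94564797-94565096, plus strand), held 13 and also a TATAAA match. Bcam, a laminin-binding surface protein (chr7:19770483-19770782, minus strand), held 27, and its ratio of observed to expected CpG was 0.744. Itgb7, the integrin beta 7 chain (chr15:102231886-102232185, minus strand), held 5. Irg1, listed in RefSeq as Acod1, encodes the enzyme that makes itaconate; its promoter (chr14:103046762-103047061, plus strand) held 2 and a TATAAA match. Of these 6 promoters, Bcam's was the one that passed the usual limits for a CpG-rich start, which are a GC content of at least 50% and an observed to expected CpG ratio of at least 0.6.

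Lone genes had the lowest share of CpG-rich promoters among the classes. Among genes with a single RefSeq promoter, 67 of 201 lone genes were CpG-rich (33.3%, 26.9 to 40.3). Flanking genes were CpG-rich in 192 of 304 cases (63.2%, 57.5 to 68.6), and the remainder in 37 of 82 (45.1%, 34.1 to 56.5). The genes of shared promoter-near regions gave 70.8% (69.7 to 71.9, 7044 genes), and all protein-coding promoters in the table gave 44.6% (14731 genes). The interval of the lone genes therefore lay below those of flanking and shared genes, and its upper end was under the value for all promoters. Restricting to the 146 lone genes whose region centred within 1 kb of the start gave 35.6%. The median observed to expected ratio was 0.459 for lone, 0.723 for flanking and 0.771 for shared genes. Promoter sequence took no direct part in the choice of members, but the lone class by rule leaves out starts with a diluent region. Genes of shared regions, which have one, were rich in CpG, so a lower share in lone genes follows in part from the rule. The promoters of shared genes are also among all promoters, and genes without a shared region were not counted apart. Shared regions are wider and stronger, and CpG content was not compared at matched strength.

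Promoters were searched on both strands, and a match is a description of letters, not a site. Of 10 motifs, 2 had intervals for lone and shared genes that did not overlap, GGGCGG and CACGTG. The lone class leaves out starts with a diluent region, so this comparison has the same limit as that of CpG content. The TATA box letters TATAAA were in 11.9% of lone promoters, 7.89% of flanking, 7.25% of shared and 14.3% of all promoters. GGGCGG, the core letters bound by Sp1, was in 49.3% of lone, 63.2% of flanking, 66.7% of shared and 45.3% of all promoters. CACGTG, the E-box letters, was in 4.48% (2.07 to 8.33) of lone, 8.22% of flanking, 10.3% (9.59 to 11.0) of shared and 7.72% of all promoters. TTCNNNGAA, the letters of a STAT site, was in 6.47% of lone, 6.91% of flanking, 6.89% of shared and 7.86% of all promoters. TGANTCA, the AP-1 letters, was in 7.96% of lone, 8.22% of flanking, 4.61% of shared and 7.09% of all promoters. The others searched were CCAAT, GAGGAAGT, TGACGTCA, GAAANNGAA and TTCAGCACC.

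**Figure D1:**
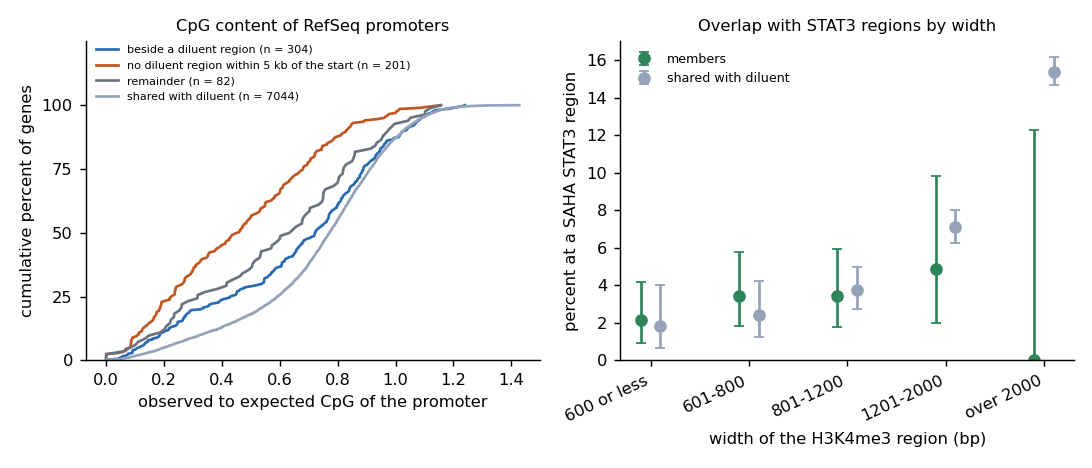
Left, cumulative percent of genes (y axis) against the observed to expected CpG ratio of the RefSeq promoter (x axis) for each class. The lone curve lies to the left, with a median of 0.459 against 0.771 for shared genes. Right, percent of H3K4me3 regions at a SAHA STAT3 region (y axis) by width of the region (x axis), with exact 95% intervals. Members and shared regions overlap in their intervals at every width up to 2000 bp.

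The classes also differed in where they lay. Lone regions centred on the start: 320 of 472 (67.8%, 63.4 to 72.0) had their midpoint within 1 kb, close to the 76.2% of shared regions, and 230 covered the start base itself. Flanking regions avoided it, with 60 of 617 midpoints within 1 kb (9.72%, 7.50 to 12.3). Their midpoints were 1 to 5 kb into the gene in 383 cases (62.1%) and 1 to 5 kb upstream in 174 (28.2%). For the remainder, 79 of 183 midpoints (43.2%) were 1 to 5 kb upstream. The distance limits hold for every class, but the gap limits that define the classes also shape these positions, so they are descriptions.

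**Figure D2:**
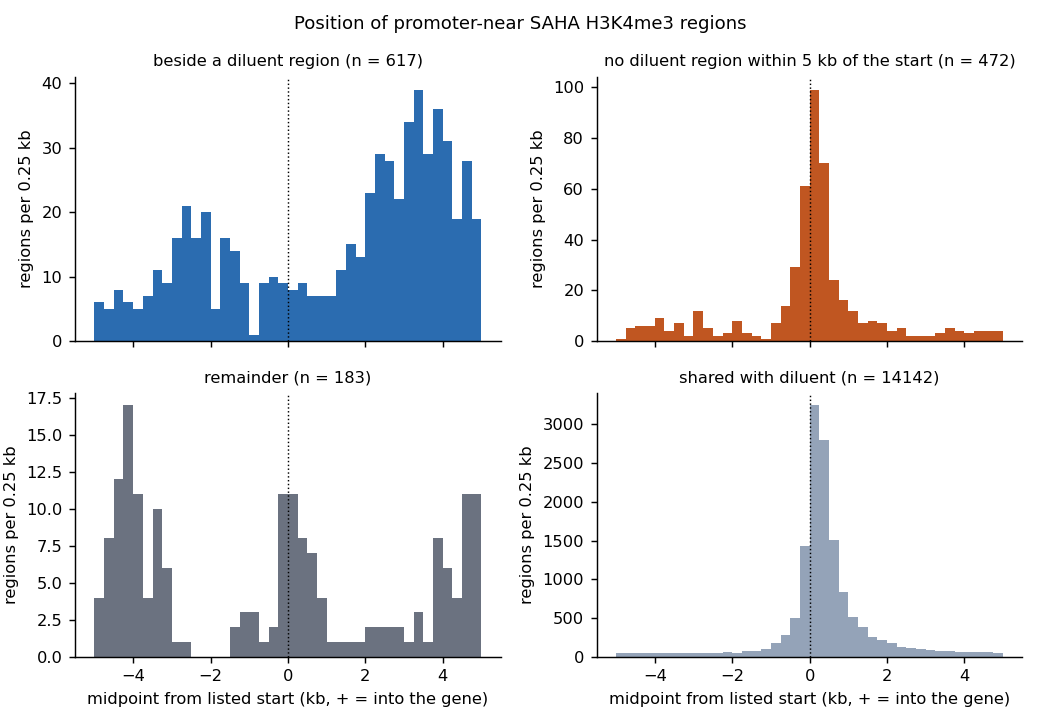
Number of SAHA H3K4me3 regions per 0.25 kb (y axes, own scale per panel) against the distance of the midpoint from the listed start (x axes, kb, positive into the gene) for the 3 classes and for the 14142 shared regions. Lone and shared regions peak at the start, while flanking regions peak on both sides of it and more often inside the gene.

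Most members were weak and narrow. In the authors' deposited table the median score was 94.2 for lone, 84.6 for flanking and 82.2 for the remaining regions, against 3100 for shared promoter-near regions. The lowest score in the list is about 50 and most shared regions, 9775 of 14142, stood at 3100 or above. The median width was 747, 738 and 728 bp in the 3 classes, and 2337 bp for shared regions. The share of promoter-near SAHA regions without a diluent region fell steeply with the score: 64.2% (748 of 1166) between 50 and 100, 13.4% (155 of 1153) between 200 and 500, and 0.451% (7 of 1553) between 1000 and 3100. None of the 9775 regions at 3100 or above was a member, which allows a share of up to 0.0377%. Sequencing was slightly shallower for SAHA, with 21428355 filtered tags against 22420200 for diluent.

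**Figure D3:**
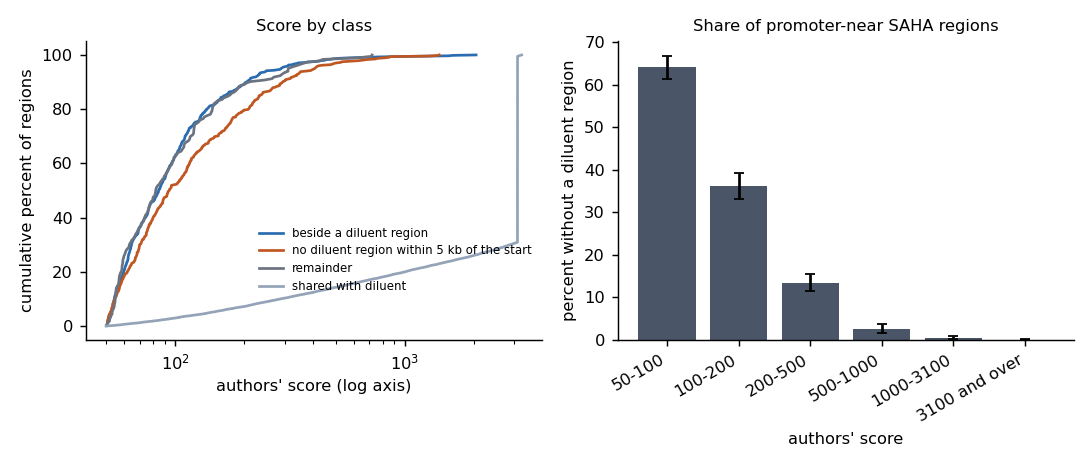
Left, cumulative percent of regions (y axis) against the authors' score (x axis, log) for each class and for shared regions. Right, percent of promoter-near SAHA regions that overlap no diluent region (y axis) by score (x axis), with exact 95% intervals; it falls from 64.2% to 0%.

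The same rule turned around, for diluent regions that overlap no SAHA region, chose 377 of 14421 promoter-near diluent regions (2.61%). The SAHA list is longer, with 25723 regions against 22255. With the SAHA list cut to as many top regions as the diluent list, the members numbered 615 in place of 1272. The turned rule was not counted against the shortened SAHA list, so 615 and 377 are not a matched pair. The classes of the turned rule were differently filled. Of the 377, 230 (61.0%) were at starts with no region in the other list and 92 (24.4%) were flanking, whereas for SAHA these shares were 37.1% and 48.5%. Their median score was 76.3 and the highest was 1114.42 in the authors' deposited table.

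The lone region with the highest score in the authors' deposited table, 1413.5, was at Fxy. It was the widest member of all, 9236 bp, and the only member that overlapped a region of the IgG library. Serpinb1a, an inhibitor of neutrophil serine proteases, had a region of 2347 bp over its start (chr13:32940885-32943231) with 280 tags in the SAHA library. Cxcl11, an interferon-induced chemokine that binds CXCR3, had one of 2557 bp (chr5:92789986-92792542) with 223 tags. H2-Eb2 had one of 2326 bp (chr17:34462293-34464618) with 216 tags, and Mgl2 one of 2389 bp (chr11:69942218-69944606) with 186 tags. These 4 regions covered the listed start, and no diluent region lay within 5 kb of it.

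The nearest diluent regions of several of these belonged to a relative in the same gene cluster. For Cxcl11 it lay 6927 bp away at Cxcl10, for H2-Eb2 13975 bp away at H2-Eb1, for Mgl2 35137 bp away at Clec10a, and for Gpr56 35027 bp away at Gpr97. The Cxcl10 region was weak in diluent (score 154.08 in the authors' deposited table) and the H2-Eb1 region strong (score 3100). Over the whole class the median distance to the nearest diluent region was 21076.5 bp, and 244 of 472 (51.7%) were more than 20 kb from one.

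Kif1a, a kinesin of axonal transport, had 148 tags over its start. Col1a1, the type I collagen alpha 1 chain of stromal cells, had 137 tags in a region 1.136 kb into the gene. Thy1, a surface glycoprotein of T cells and neurons, had 101, and Bcam had 131. Gpr56, an adhesion receptor, had 110 tags in a region centred at the start (chr8:97507468-97509055). Etv2, an ETS factor of blood and endothelial development, had 114. Mmp9, the matrix metalloproteinase gelatinase B, had 152 tags over 2708 bp.

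Tags could be read for the lone class because 416 of its 472 regions (88.1%) had a region with the same ends in the table called from the SAHA library alone. Their tag counts ran from 16 to 280 with a median of 35. Shared regions had a median of 791. The corresponding diluent table lists regions down to 16 tags, with a 5th percentile of 23, and 77 of the 416 members (18.5%) were below that percentile in SAHA. The other end of the range is farther from the limit: 23 members had at least 100 tags, and 4 of these overlapped a region in the diluent table.

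In all, 62 lone regions (13.1%, 10.2 to 16.5) overlapped a region called from the diluent library without the IgG control. Diluent tags there passed the limit over local background, though the diluent list against IgG had no region. For 60 of these 62 lone regions the 2 counts could be paired. The paired diluent regions had a median of 24 tags, near the 5th percentile of their table. Chad had 162 tags over 1443 bp in SAHA and 19 over 485 bp in diluent, a log2 ratio per filtered tag of 3.16 (2.47 to 3.93). Sox7, an endothelial and developmental transcription factor, had 108 and 22 (2.36, 1.69 to 3.09). Klf13, a Kruppel-like zinc finger factor, had 99 and 18 (2.52, 1.79 to 3.34). Hspb1, a small heat shock protein, had 78 and 18 (2.18, 1.43 to 3.01). Ephx3, an epoxide hydrolase, had 122 and 31 (2.04, 1.46 to 2.66). Per kb of the region in its own library, the log2 ratios were 1.58 for Chad, 0.85 for Klf13, 0.82 for Sox7, 0.59 for Hspb1 and 0.85 for Ephx3. The rule chose these regions for being called in SAHA, and the intervals cover counting error only, so the ratios are descriptions.

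Over the 60 pairs the log2 ratio ran from 0 to 3.16 with a median of 1.11. Because each count covers the region as called in its own library, the ratio was also taken per kb, where its median was 0.55. The members were chosen for presence in SAHA, so a ratio above 0 follows in part from the rule.

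**Figure D4:**
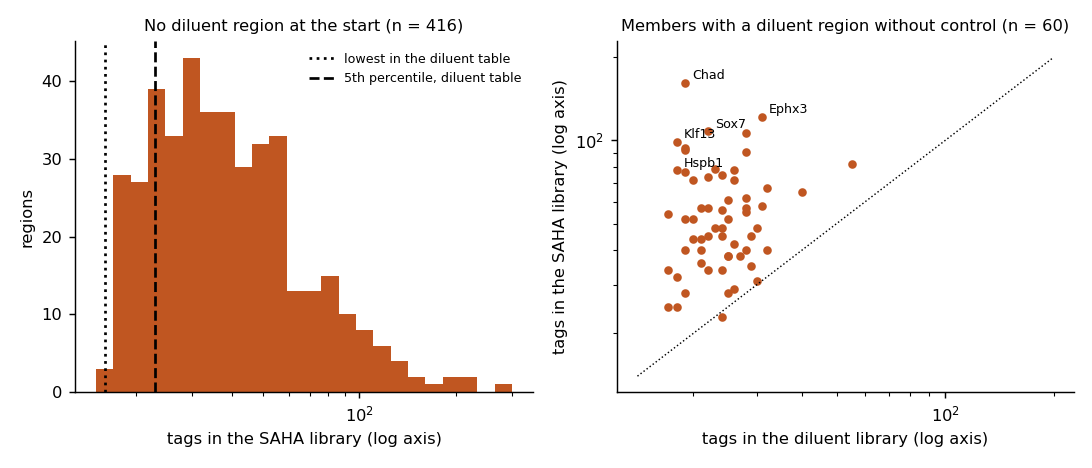
Left, number of lone regions (y axis) by tags in the SAHA library (x axis, log), with the lowest count and the 5th percentile of the diluent table marked. Right, tags in the SAHA library (y axis, log) against tags in the diluent library (x axis, log) for the 60 paired lone regions; the dotted line marks equal counts, and Chad lies farthest above it.

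The listed start is one transcript's start, and 186 of the 472 lone regions (39.4%) carry a symbol that is also assigned to a diluent region elsewhere. For 83 of them that diluent region is within 5 kb of another listed start of the gene. Pdcd1lg2, the checkpoint ligand PD-L2, is one of the 83: its member lay 3.569 kb upstream of the listed start and 3852 bp from a diluent region of the same gene. Kif1a is among the 186, with a diluent region 12910 bp from its member.

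The diluent neighbours of flanking regions stood at a score of 3100 or above about as often as all promoter-near diluent regions. Strength above that score was not compared. The 617 members had 588 neighbours, which are counted once per member here. The median gap to the diluent neighbour was 701 bp, 246 of 617 gaps (39.9%) were 500 bp or less, and 34 members sat between a pair of diluent regions. The neighbour covered the listed start for 475 members (77.0%), and its score in the authors' deposited table was 3100 or above for 431 (69.9%), against 66.4% of all promoter-near diluent regions. Members lay on the downstream side of the neighbour, by the gene's strand, in 418 cases (67.7%) and upstream in 199. For 609 members (98.7%) a SAHA region overlapped that same neighbour, against 97.4% of all promoter-near diluent regions.

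Where neighbour and counterpart paired 1 to 1 (546 members), the counterpart was the wider one for 437 (80.0%), with medians of 3229.5 bp in SAHA and 2863.5 bp in diluent. Over all other 1-to-1 pairs of the lists the share was 67.6%, and the median log2 width ratio was 0.07 against 0.12 beside members. These other pairs were taken at any distance from a start, not only near promoters. For tags, the median log2 ratio of SAHA to diluent was 0.03 over 477 neighbours, with quartiles of -0.10 and 0.26. For the other 17227 pairs the median was -0.01, with quartiles of -0.18 and 0.26, so both width and tags were slightly higher beside members. Each count covers the region as called in its own library, so the larger width can account for the tags. No ratio per kb was taken for these pairs, and the difference in tags is no measure apart from width. Few flanking regions, 38 of 617 (6.16%), overlapped any region in the table called from the SAHA library alone, and these had the same ends there. The share was 39.8% over all members and 91.2% over shared regions. The other flanking regions were in the SAHA list against IgG but were not called in that table. Tags were therefore not read for most of them.

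**Figure D5:**
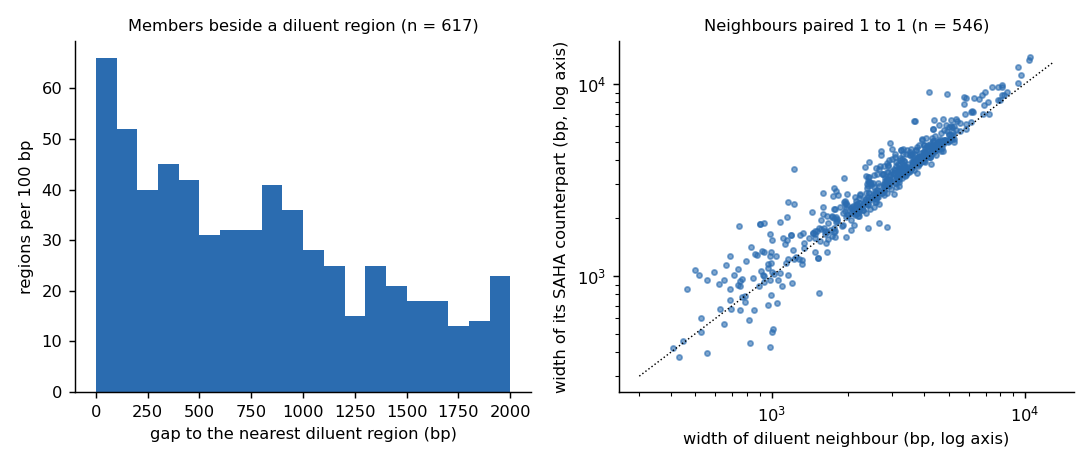
Left, number of flanking regions per 100 bp (y axis) by gap to the nearest diluent region (x axis, bp); short gaps are the most frequent. Right, width of the SAHA counterpart (y axis, log) against width of the diluent neighbour (x axis, log) for 546 members whose neighbours pair 1 to 1; the dotted line marks equal width, and 437 points lie above it.

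The neighbours of the highest-scoring flanking regions ranged widely in strength. Irg1 had a member of 3000 bp upstream of its start (chr14:103442046-103445045), 266 bp from a neighbour with 916 tags in diluent and 1061 in SAHA (log2 ratio 0.28, 0.15 to 0.41). Cd48, a ligand of the SLAM receptor family, had a member 2.104 kb into the gene, and its neighbour had 839 and 865 tags (0.11, -0.03 to 0.25). A second Cd48 member, at 4.568 kb, was among the remaining regions. Zbtb7a, a transcriptional repressor of blood development, had a member 4.816 kb into the gene beside a neighbour of 8099 bp with 3544 and 3859 tags (0.19, 0.12 to 0.25). Glipr2 had a member 4.864 kb into the gene, beside a neighbour with 3244 and 3007 tags (-0.04, -0.12 to 0.03).

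At Itgb7 and Prtn3 the neighbour had under 100 tags in diluent and the largest ratios of those described here. All ratios of neighbours compare counts over the region as called in each library, and none was taken per kb. At Itgb7 the member (chr15:102063829-102066641) had 275 tags in SAHA, and the neighbour over the start went from 97 tags in diluent to 321 in SAHA (1.79, 1.46 to 2.13). At Prtn3, the neutrophil protease proteinase 3, the member covered the start with 204 tags, and the neighbour, assigned to the adjacent protease gene Elane, went from 33 to 136 tags (2.11, 1.55 to 2.70). Fgf11, an intracellular fibroblast growth factor homologue, held the member with the highest score in the authors' deposited table, 2045.79. It covered the Fgf11 start with 292 tags, 153 bp from a region assigned to another gene, which had 320 tags in diluent and 390 in SAHA (0.35, 0.13 to 0.57). Over the 477 neighbours the interval was above 0 for 32.1% and below 0 for 21.8%. Over the other 17227 pairs it was above 0 for 23.6% and below 0 for 23.6%.

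Some loci held several members in a row. In all 1097 genes had 1 member, 73 had 2, 7 had 3 and 2 had 4. Atp6v0a1, a subunit of the vacuolar proton pump, had 4 consecutive members between 1.364 and 4.480 kb into the gene, beside a shared region with 2371 tags in diluent and 2046 in SAHA. Zmynd8, a chromatin reader, also had 4, at different listed starts. Fam60a, Phospho1, Nsun4, Fam43a and Sema4a each had 3, mostly beside a diluent region. At Sema4a, however, the members 3.676 and 4.424 kb upstream of the start were among the remaining regions. Notch3, a Notch receptor, had 3 lone regions, and its nearest diluent region lay 43461 bp from the closest. Spnb3, a spectrin gene, had 3 lone regions around 1 start, within 12734 to 14086 bp of a diluent region of the same gene.

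Of the 183 remaining regions, the highest-scoring lay at Ccdc80, an extracellular matrix protein gene, with 1615 bp over the start (141 tags) and a second region of 3540 bp directly downstream. Its diluent region was 2207 bp from the first. Il7r, the IL-7 receptor alpha chain, had a member 4.728 kb upstream with 121 tags, beyond a diluent region of 5530 bp. Spib, an ETS factor of plasmacytoid dendritic cells and B cells, had one over its start with 73 tags. Its nearest diluent region was 2281 bp away and assigned to Mybpc2.

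STAT3 regions were counted on the members because the study profiled both. In the SAHA STAT3 list, 40 of 1272 members overlapped a region (3.14%, 2.26 to 4.26), against 11.7% of the 14142 shared promoter-near regions. In the diluent STAT3 list it was 20 (1.57%, 0.963 to 2.42) against 4.12%. The lists differ in length, with 8552 STAT3 regions in SAHA and 3507 in diluent, so the rise from one to the other is no measure of the members. Members were also narrower than shared regions. Per megabase that each group covered, 37.2 members and 43.0 shared regions overlapped a region of the SAHA STAT3 list. For the diluent STAT3 list these values were 18.6 and 15.2. An H3K4me3 region that held several STAT3 regions counted as 1. At widths over 800 and up to 1200 bp the SAHA share was 3.46% (1.80 to 5.96) of members and 3.75% (2.76 to 4.97) of shared regions. Over 2000 bp it was 0 of 28 members (0 to 12.3%) and 15.4% (14.7 to 16.2) of shared regions, and these intervals did not overlap. This group has no upper width limit, so the difference is no measure apart from width. The widest region was 3494 bp for flanking, 3540 bp for remaining, 9236 bp for lone and 18381 bp for shared regions. Among shared regions the SAHA share rose with width, and was 7.09% over 1200 and up to 2000 bp. In the diluent STAT3 list, 1 of the 28 members overlapped a region (3.57%, 0.0904 to 18.3), and this interval contained the 5.69% of shared regions.

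By class, 18 flanking (2.92%), 15 lone (3.18%) and 7 remaining regions (3.83%) overlapped a SAHA STAT3 region, and their intervals overlapped. Lone members at such regions included Gpr56, Heyl, a transcription factor of the Notch pathway (44 tags), and Anks1 (43 tags). Flanking ones included Il6ra, the IL-6 receptor alpha chain that signals through STAT3, and Kdr, the VEGF receptor. They also included Slamf6, a SLAM family receptor, and Fyb, an adaptor of immune cells. In the authors' deposited table the STAT3 score was 53.67 at Il6ra and 33.66 at Gpr56. Diluent STAT3 regions lay on members at Cd36, a scavenger receptor, Ptprj, a receptor phosphatase, Sema4a, a semaphorin of immune cells, and Il7r. Elmo1, which acts in engulfment of dying cells, was a lone member at one.

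Gene lists were read against 13377 named genes in the 4 lists, of which 940 had any member (7.03%), 486 a flanking one (3.63%) and 339 a lone one (2.53%). Genes that define dendritic cells mostly had shared regions: of 20, 18 had a promoter-near diluent region. Of these 20, 4 had a flanking member (interval 5.73% to 43.7%), namely Itgax (CD11c), Csf2rb (a GM-CSF receptor chain), Zbtb46 and Runx3, and Mgl2 had a lone one. Interferon-stimulated genes had flanking members at 5 of 27 (18.5%, 6.30 to 38.1), namely Mx1, Oasl1, Oasl2, Slfn4 and Usp18, and no lone one. Scores of these 5 were 50.84 to 210.15 in the authors' deposited table. Molecules of regulatory dendritic cells had flanking members at 3 of 18, Irg1, Il10ra and Lgals9, and a lone one at Pdcd1lg2. Toll-like receptor and inflammasome genes had 3 of 22, Nlrp3, Tlr8 and Casp4, and Tlr2 was among the remaining regions. Among JAK-STAT genes, 3 of 27 had a member of any class (11.1%, 2.35 to 29.2), Jak1, Pias1 and Tyk2, all with scores under 100 in the authors' deposited table. For flanking members, the lower ends of the intervals for dendritic cell identity and interferon-stimulated genes were above 3.63%. For members of any class, the interval lay above 7.03% for dendritic cell identity (5 of 20, 8.66 to 49.1). It also did for integrins (6 of 23, 26.1%, 10.2 to 48.4) and for morphogens and growth factors (12 of 90, 13.3%, 7.08 to 22.1). The interval of interferon-stimulated genes contained 7.03%, and that of zinc finger protein genes lay below it. In all, 30 lists were read, so these shares are descriptions.

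Lone members were also counted in lists of receptor, channel, growth factor and developmental genes, against the 2.53% of all named genes. Of 134 G protein receptor genes 7 had one (5.22%, 2.13 to 10.5), among them Cxcr3, Drd4, Gpr15 and Gpr56. Among 140 ion channel genes 6 did (4.29%, 1.59 to 9.09), with Cacna1a (60 tags), Cacng8 (89 tags) and the ryanodine receptor Ryr1 (39 tags). Among 90 morphogen and growth factor genes 6 did (6.67%, 2.49 to 13.9), including Fgf23 (32 tags), Notch3 and Pdgfrb (53 tags). Developmental transcription factors gave 5 of 134 (3.73%, 1.22 to 8.49): Sox7, Klf13, Heyl, Hoxb5 and Nkx1-2. Each of these intervals contained 2.53%. A lone member needs a start without a diluent region, and these lists had more such genes. A promoter-near diluent region was at 70.9%, 53.6%, 72.2% and 59.0% of their genes, in the order given, against 79.4% of all named genes. The shares are therefore no measure of these gene groups. The CXCR3 ligand Cxcl11 and its receptor gene Cxcr3 both had lone members, of 223 and 18 tags.

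Several lists held few members or none, against the 7.03% of all named genes with any member. Zinc finger protein genes had 2 lone and 5 flanking members among 375 (0.533% and 1.33%), and 2.93% (1.47 to 5.19) had any member. The intervals of the other lists in this paragraph contained 7.03%. None of the 15 H3K4 methylation enzyme genes (0 to 21.8%) and none of the 12 macrophage and monocyte genes (0 to 26.5%) had a member of any class. All 15 of the former had shared regions in SAHA. Of 84 genes with ribosomal protein symbols, Rps13 and Rps15a had flanking members, and the third, Rps6kl1, is a kinase-like gene caught by its prefix. The share with any member was 3.57% (0.743 to 10.1) in that list. Nfkbiz was the 1 of 22 STAT3 and cytokine response targets with a member (4.55%, 0.115 to 22.8).

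The label of the cells was checked against marker genes. The deposited lists hold only genes assigned to a region, so a symbol in none of them lacks a region or is listed under another symbol. Counts are therefore given over all symbols sought, with the number listed beside them. Of 11 dendritic cell markers, 10 had a region within 5 kb of the start in both treatments, and H2-Aa had none under its symbol. In both treatments macrophage and monocyte markers had regions at 6 of 8 symbols (7 listed) and T cell markers at 3 of 8 (5 listed). Granulocyte or mast cell markers had them at 2 of 7 (3 listed), erythroid markers at 2 of 5 (2 listed) and NK cell markers at 1 of 4 (2 listed). B cell markers had them at 1 of 5 in diluent and 0 of 5 in SAHA (3 listed). Stromal markers had them at 3 of 5 in diluent and 4 of 5 in SAHA, the added one being the lone member at Col1a1, while Col1a2 had none in either. In the authors' deposited table the highest score at Elane, beside the Prtn3 member, was 98.13 in diluent and 652.02 in SAHA. The T cell gene Cd28 had 50.75 and 747.48, the NK cell gene Klrd1 50.63 and 210.31, and the erythroid gene Epor 580.25 and 1463. The macrophage and monocyte marker Ccr2 had 415.98 and 3100, and Pdgfra, Cdh5 and Epcam were also higher in SAHA. The T cell gene Cd3d had 3100 and 2894.64, and the B cell gene Cd79b had 55.02 in diluent only. Lck, Kit and Klf1 stood at 3100 in both. The dendritic cell markers Flt3 and Itgax had 1778.68 and 741.55 in diluent, and 1032.21 and 549.78 in SAHA, in the authors' deposited table. The other dendritic cell markers with a region stood at 3100 in both treatments. The part of other cell types in these members was not tested, and in bulk chromatin more cells with the mark and more mark per cell cannot be told apart.

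The limits of the rule fell in the middle of continuous values. Ifi205 and Pdgfa were left out for an overlap of 1 bp, and Bak1 for 2 bp, whereas members at TIP5, Epb4.1 and Fam43a were 1, 2 and 4 bp from a diluent region. At the distance limit, Sepx1, Runx2 and Gm14446 were inside at 4995.5, 4994.5 and 4991.5 bp, and AK138089, BC062895 and Fbxo33 outside at 5013.5, 5018.5 and 5025.5 bp. At the gap limit, Prkacb, at 1995 bp, was the widest gap among flanking regions. Gpr15, at 2045 bp, fell just outside and counted as lone. The lowest-scoring members, at Ncam1, Elfn1 and Hsd17b11, had scores of 50.05, 50.13 and 50.15 in the authors' deposited table. Members took between 5.73% (chromosome 8) and 12.1% (chromosome 15) of the promoter-near SAHA regions of a chromosome.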

How the data were processed

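Alignment used BWA and build mm9 according to the submitters' processing notes. The authors' deposited region lists against IgG give a score per region; how it was computed was not stated in the labels. The tables of single libraries came, per the file headers, from MACS 1.4.0rc2 without control at a p-value limit of 1e-05, and hold tag counts and the fold enrichment over local background as a ratio. Filtered tags numbered 17810183 to 25013431 per library.

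Regions were compared in Python 3.11.15 (pandas 2.3.3, scipy 1.17.1), with overlap and class rules tested on simulated data. Log2 ratios divide tag counts by filtered tags. With 1 library per group no test between treatments was made. Regions without a usable strand (1 in the SAHA list) were left out. Members of each class were matched to RefSeq by accession, symbol or unique synonym: 527 flanking, 382 lone and 149 remaining genes matched, and those with a single promoter entry were used. Named genes are the 12 highest scores per class with a named gene, the 8 highest at each STAT3 list, members of the gene lists, the 5 widest, genes with 3 or more members and those at the limits. Members and lists were chosen with earlier results of these data known. Alternatives changed the overlap, distances, scores, gap, diluent list and CpG limits.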

Additional observations from a re-analysis of the deposited data

How the results depend on the processing

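Of 36 alternatives, 18 kept the value near the main one (within 1.5 times for counts) and 18 moved it. The number of members, 1272, was 427 with midpoints within 1 kb, 680 within 2.5 kb, 524 at scores of at least 100, and 615 when only as many top SAHA regions as diluent regions were used. The 617 flanking regions became 60, 238, 229 and 283 under the same settings. The 472 lone regions became 226 at scores of at least 100 and 250 with equal numbers of regions. They became 286 when the symbol had to be absent from the diluent list, and 404 when diluent regions called without control were added. The share at SAHA STAT3 regions, 3.14%, was 1.81% when at least 50% of the STAT3 region had to be covered (shared regions 11.0%), 4.32% within 500 bp and 4.77% at scores of at least 100. The diluent STAT3 share, 1.57%, was 0.629% with 50% covered. Under a stricter CpG limit (0.75 and 55% GC) 15.4% of lone and 45.4% of flanking promoters were CpG-rich, against 47.4% of shared ones. The median width, 738 bp, was 985.5 bp at scores of at least 100. No paired analysis was possible because each group is 1 library. Of the 1272 members, 748 scored under 100, and at this depth a region near the limit can be called in one library and not in the other.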
